A study of Mus musculus with 56 samples.

Results

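The comparison described here is between TH17 and Treg cultures of CD4+ T cells that lacked Odc, the gene of ornithine decarboxylase. It was made from the Odc count table, with the 4 TH17 and the 4 Treg libraries labelled knockout as its members, 8 of the 56 samples of the series. The question it addresses is which differences between the subsets were left when neither subset could make polyamines through Odc. CD4+ T cells from spleen and lymph nodes of C57BL/6 mice were activated through CD3 and CD28 with IL-2 and polarized for 4 days, and their poly(A) RNA was sequenced. The deficient mice carried floxed Odc alleles and a Cre recombinase driven by the Cd4 promoter, so that deletion was restricted to cells that had expressed Cd4, and the wild-type (WT) mice of the same table were the controls. TH17 cultures received IL-6, TGF-beta and IL-1, and Treg cultures received TGF-beta and further IL-2. Both received blocking antibodies to interferon and IL-4, at 10 µg/mL each for TH17 and 4 µg/mL each for Treg. The subsets therefore differed in TGF-beta dose as well (5 ng/mL for TH17, 10 ng/mL for Treg), and a lineage difference cannot be told apart from a direct effect of the medium. The 4 TH17 and 4 Treg WT libraries served for comparison, and Dohh-deficient libraries of a second table stand beside them for a few genes. The labels do not say which libraries came from the same mouse.

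TH17 cells are helper T cells that protect barrier tissues such as gut and skin from microbes living outside host cells. They are directed by STAT3, BATF, c-MAF, the nuclear receptor RORα and the aryl hydrocarbon receptor, among other factors, and they secrete IL-17A, IL-17F, IL-21 and IL-22. Treg cells restrain immune responses under the control of FOXP3, helped by factors of the Ikaros family, and display inhibitory and IL-2 receptors. Both fates start from TGF-beta, and inflammatory cytokines such as IL-6 divert cells from the FOXP3 to the TH17 program. Ornithine decarboxylase makes putrescine, the first polyamine, and the polyamine spermidine is the donor for hypusine, a modified amino acid of the translation factor eIF5A that Dohh completes.

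Each TH17 and Treg library held between 5905374 and 9145214 reads counted in genes, and replicates of a group correlated at r of 0.966 or more across genes on the log scale. Odc1 gave 618, 595, 476 and 525 CPM (read counts scaled to the size of each library) in the deficient TH17 libraries and 482, 457, 493 and 443 CPM in the deficient Treg libraries. WT libraries held 733 ± 89.0 CPM (SD, n = 4) in TH17 and 407 ± 60.4 CPM (n = 4) in Treg cultures. The log2 fold change of Odc1, deficient against WT, was -0.40 (SE 0.16, adjusted p = 0.0416, edgeR quasi-likelihood test) in TH17 and 0.20 (SE 0.16, adjusted p = 0.282) in Treg cultures. Leaving out any 1 of deficient TH17 replicates 2, 3 and 4 or WT TH17 replicates 3 and 4 raised the TH17 adjusted p to 0.0502 to 0.124. Odc1 lies at chr12:17544794-17551505 (GRCm38), the floxed part covers only some of its exons, and the count sums over all exons, so this value checks the label little. "Deficient" below refers to the label. The Y-linked gene Ddx3y was read at 57.0 to 89.3 CPM in all 8 deficient libraries, and Xist stayed at or below 0.399 CPM in them. In WT libraries of both subsets, Xist stood at 763 to 1450 CPM in replicates 1, 3 and 4 and at most 0.517 CPM in replicate 2, and Ddx3y at 48.6 to 96.2 CPM in replicates 1 and 2 and at 0 in replicates 3 and 4. The part of sex in differences between genotypes was not tested.

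The defining T cell genes were present in all 8 deficient libraries. The summed CPM of 12 T cell identity genes ran from 4700 to 6000 in TH17 and from 4200 to 5660 in Treg libraries, against 5100 to 6120 and 4380 to 6120 in WT. Sums for other cell types were lower, the largest being 702 CPM for the gamma-delta list in a deficient Treg library. For gamma-delta T cells, for CD8 T and natural killer cells, and for basophils and mast cells they were higher in every deficient library than in any WT library of the same subset. Myeloid and B cell sums overlapped between the genotypes in TH17 cultures. In Treg cultures both were higher in every deficient than in any WT library. There, myeloid genes summed to 78.5 to 361 CPM against 21.2 to 42.9 CPM, and B cell genes to 22.1 to 171 CPM against 6.1 to 12.1 CPM. Erythroid sums were at most 3.07 CPM. The 6 gamma-delta T cell genes summed to 311 to 623 CPM in deficient TH17 and 503 to 702 CPM in deficient Treg libraries, against at most 72.0 CPM in any WT library of the TH17 and Treg groups. Myeloid genes summed to 39.9 to 299 CPM and 78.5 to 361 CPM, and basophil and mast cell genes to 35.1 to 306 CPM and 40.4 to 181 CPM, highest in replicate 3 of both subsets. No gene of any list was at 0 in all 8 libraries. Between the deficient subsets, no member of the gamma-delta, myeloid or basophil lists passed the test. In Treg cultures 3 of 6 B cell genes and 3 of 6 genes of CD8 T and natural killer cells were higher, as were 4.83% of all genes tested. Of the 12 T cell identity genes, Cd28 and Cd5 were higher in TH17 cultures (log2 fold change 1.78 and 1.10). That count of 2 was not distinguished from the 4.05% of all genes tested that were higher in TH17. In bulk RNA, fewer cells of a type and less RNA per cell cannot be told apart.

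**Figure D1:**
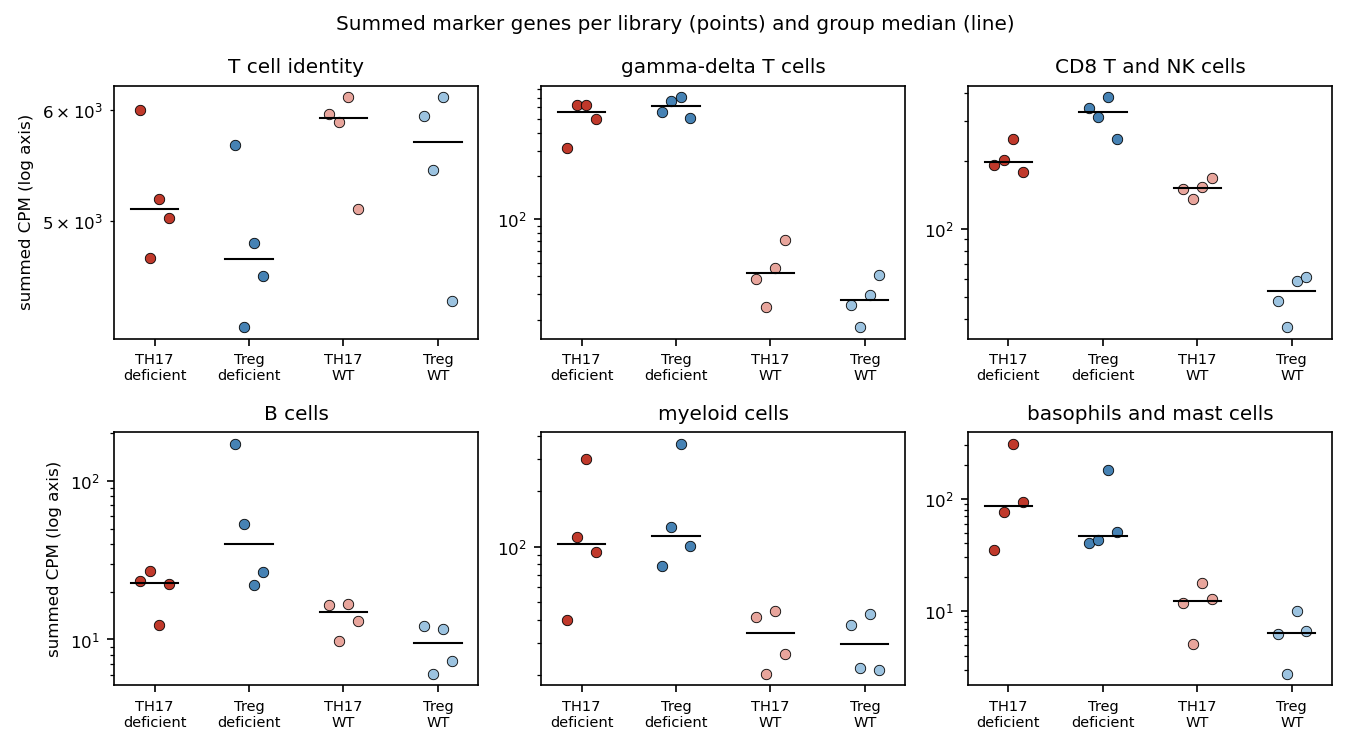
Summed CPM (log axis) of 6 marker lists in the deficient and WT TH17 and Treg libraries, with each library as a point and the group median as a line. T cell identity genes lay between 4200 and 6120 CPM in every group, and the gamma-delta list was above 300 CPM in every deficient library and at most 72.0 CPM in WT libraries.

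The deficient subsets still differed at many genes, and the difference was smaller than between WT subsets. Of 13839 genes tested, 1230 (8.89%) passed an adjusted p below 0.05 and a 2-fold change between deficient TH17 and Treg libraries. Of these, 561 (4.05%) were higher in TH17 and 669 (4.83%) in Treg cultures. The WT comparison, made from other libraries in the same fit, called 1941 genes (14%), 1000 (7.23%) higher in TH17 and 941 (6.8%) higher in Treg. The standard errors were alike, with a median of 0.174 on the log2 scale for the deficient and 0.172 for the WT comparison. The median absolute log2 fold change over all genes was 0.24 in the deficient and 0.319 in the WT comparison. The 4 TH17 and 4 Treg libraries did not overlap at 3029 genes (21.9%) in the deficient and at 4232 (30.6%) in the WT cultures.

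The comparisons had 790 called genes with the same direction in common, which was 64.2% of the deficient calls and 40.7% of the WT calls. They called 11 genes in opposite directions. A call lost in the deficient comparison is not by itself a difference between the comparisons, so the change in the lineage difference was tested as an interaction of genotype and subset. This interaction was called at 661 genes (4.78%), at 272 (1.97%) with a log2 fold change moved towards TH17 and at 389 (2.81%) moved towards Treg. Of the 1140 genes called only in WT subsets, 342 had a called interaction, and of the 429 called only in deficient subsets, 85 had. Among the 389 genes moved towards Treg, 290 were higher in deficient than in WT Treg libraries and 76 were lower in deficient than in WT TH17 libraries, by the same thresholds. Deficient Treg libraries differed from WT Treg libraries at 3318 genes (24%), and TH17 libraries at 2153 (15.6%). The interaction count was sensitive to single libraries, with 420, 307 and 438 calls without replicates 1, 2 and 3 of all 4 groups, and 1001 without replicate 4 of the WT Treg group.

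**Figure D2:**
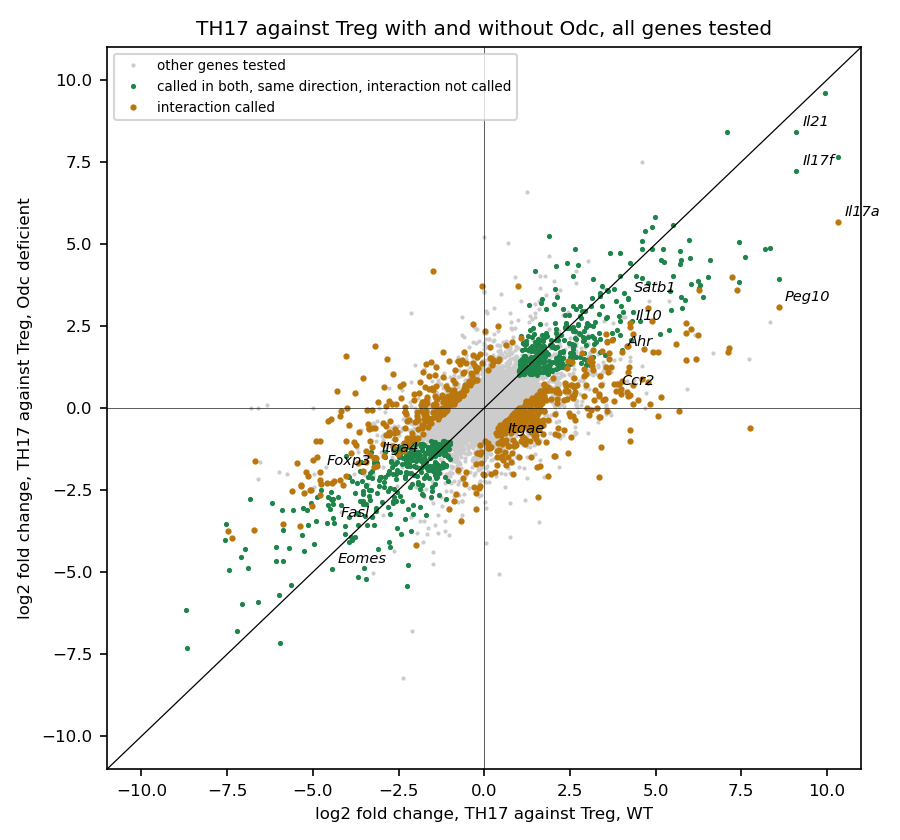
Log2 fold change of TH17 against Treg in WT (x axis) and deficient (y axis) libraries for the 13839 genes tested, with genes called in both in the same direction and without a called interaction in green, genes with a called interaction in orange, and the line of equal change in black. Il21 lay near the line, while Il17f, Il17a, Ccr2 and Foxp3 lay between the line and 0.

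TH17 cytokines were among the largest differences between the deficient subsets. Of 6 TH17 cytokine and chemokine genes tested, 5 were higher in deficient TH17 than in deficient Treg libraries (background 4.05%), as in WT libraries, and the median log2 fold change was 5.52 against 6.89 in WT (5.41 and 5.74 with genes near 0 counts set to their lower bound). Over all genes tested the medians were -0.00658 and 0.0332. Il17f, which encodes a cytokine that acts on epithelium and recruits neutrophils, was read at 834, 632, 946 and 586 CPM in TH17 and 7.53, 4.22, 3.88 and 4.43 CPM in Treg libraries. The difference was 7.22 on the log2 scale (SE 0.48, adjusted p = 2.99e-11, edgeR quasi-likelihood test) against 9.09 in WT, and the interaction was -1.87 (adjusted p = 0.0579), called with the replicate number as a block (-1.93, adjusted p = 0.0314). Il21, a cytokine that sustains TH17 cells and helps B cells, stood at 346, 185, 187 and 223 CPM in TH17 and 1.85, 0.241, 0.388 and 0.261 CPM in Treg libraries. All 4 TH17 libraries lay far above all 4 Treg libraries for both genes. For Il21 the log2 fold change was 8.42 (SE 0.47, adjusted p = 4.31e-13) against 9.10 in WT, with an interaction of -0.68 (adjusted p = 0.68).

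Il17a, which encodes the cytokine that names the subset, had the most reduced fitted difference of the list. The size of that reduction rests on very few reads in WT Treg libraries. Il17a was read at 140, 56.4, 154 and 75.5 CPM in deficient TH17 and at 2.91, 1.69, 2.72 and 1.04 CPM in deficient Treg libraries, still without overlap. WT libraries held 274 to 413 CPM in TH17 and 0 to 0.583 CPM in Treg cultures, so that deficient cultures were lower in TH17 and higher in Treg. It differed by 5.67 (SE 0.49) in deficient and 10.33 in WT subsets, and the interaction was -4.66 (SE 0.99, adjusted p = 0.00281, edgeR quasi-likelihood test). Replicates 2 and 4 were the lower of the 4 TH17 libraries. Il22, a cytokine of epithelial defence, moved otherwise. It was read at 17.8, 10.2, 19.0 and 9.24 CPM in deficient TH17 libraries and at no more than 3 counts in any deficient Treg library, at least 35.5-fold higher in TH17. Il22 was also higher in deficient than in WT TH17 libraries, which held 0.702 to 2.67 CPM (log2 fold change 2.93, SE 0.64, adjusted p = 0.000644). Ccl20, a chemokine that attracts CCR6+ cells, was higher in deficient TH17 by 1.44 (SE 0.40, adjusted p = 0.0128), a call lost without replicate 2 of all 4 groups (1.31, adjusted p = 0.0995). Csf2, the gene of GM-CSF, was read at 5.58 ± 0.61 CPM in TH17 and 6.71 ± 0.87 CPM in Treg libraries (n = 4 each) and did not pass the test.

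Promoters of 4 TH17 genes are shown because these genes carried large lineage differences. Each run is the 250 bases before the gene start on the strand of the gene (RefSeq, GRCm38.p6), and capitals mark AGGTCA, the core motif read by RORα, the product of Rora, and by related receptors, or its reverse complement TGACCT.
Il17a (chr1:20730655-20730904, plus strand): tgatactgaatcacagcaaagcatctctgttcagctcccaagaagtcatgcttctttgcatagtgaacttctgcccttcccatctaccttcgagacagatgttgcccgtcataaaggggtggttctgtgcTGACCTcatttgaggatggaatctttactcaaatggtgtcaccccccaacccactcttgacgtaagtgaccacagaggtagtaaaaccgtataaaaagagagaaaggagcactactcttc
Il17f (chr1:20784271-20784520, minus strand): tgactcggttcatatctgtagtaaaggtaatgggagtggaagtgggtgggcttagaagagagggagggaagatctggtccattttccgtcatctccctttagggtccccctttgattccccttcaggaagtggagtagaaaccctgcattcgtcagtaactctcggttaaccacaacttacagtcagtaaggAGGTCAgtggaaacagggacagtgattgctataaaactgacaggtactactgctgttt
Il23r (chr6:67491856-67492105, minus strand): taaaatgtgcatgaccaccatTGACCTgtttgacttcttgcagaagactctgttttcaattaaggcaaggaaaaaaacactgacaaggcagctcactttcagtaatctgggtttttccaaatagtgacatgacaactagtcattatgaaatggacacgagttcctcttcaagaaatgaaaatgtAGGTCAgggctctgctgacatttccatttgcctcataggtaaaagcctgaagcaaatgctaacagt
Il21 (chr3:37232637-37232886, minus strand): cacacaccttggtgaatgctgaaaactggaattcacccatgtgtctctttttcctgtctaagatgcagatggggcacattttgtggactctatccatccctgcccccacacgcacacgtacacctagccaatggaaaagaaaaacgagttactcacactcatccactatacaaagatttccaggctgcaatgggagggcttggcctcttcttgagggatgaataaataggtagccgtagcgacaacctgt
The motif occurred 1 time before Il17a, with its first base 120 bases upstream and on the opposite strand, and 1 time before Il17f, 58 bases upstream on the same strand. It occurred at 229 and 66 bases before Il23r and not in the Il21 window. Windows with the motif on either strand made up 14% of all windows of the table (4607 of 32851) and 10.9% of those of genes tested here. They were 12.1% of the windows of genes higher in deficient TH17 (64 of 527) and 12.9% of those of genes higher in deficient Treg (82 of 636). None of the 4 windows held the motif of STAT factors, TTC and GAA 3 bases apart, which was found in 5.12%, 5.82% and 5.89% of the windows of genes higher in deficient TH17, higher in deficient Treg and tested.

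Transcription factors of the TH17 program also separated the deficient subsets. Of 10 tested, 6 were higher in deficient TH17 cultures (background 4.05%), among them Rora, Ahr, Maf, Batf and Hif1a. The same 6 were higher in WT TH17 cultures (background 7.23%), and the median log2 fold change was 1.6 against 1.62 in WT. Ahr, a ligand-activated factor needed for IL-22, had a called interaction. It stood at 130, 189, 149 and 166 CPM in TH17 and 43.3, 59.2, 46.2 and 46.5 CPM in Treg libraries, a log2 fold change of 1.70 against 4.02 in WT (interaction -2.32, SE 0.27, adjusted p = 2.6e-06). Ahr changed mostly on the Treg side, where deficient libraries exceeded the WT mean of 13.9 ± 3.1 CPM by 1.81 (adjusted p = 4.55e-08).

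Batf, a pioneer factor for the lineage, was read at 99.1, 105, 128 and 106 CPM in deficient TH17 and 40.6, 25.5, 40.1 and 22.9 CPM in deficient Treg libraries. It differed by 1.76 (SE 0.15) in deficient and 1.68 in WT subsets, with an interaction of 0.08 whose SE was 0.21. Maf, a regulator of IL-21 and IL-10, differed by 2.13 (SE 0.34) against 3.20, with an interaction of -1.07 (adjusted p = 0.15) that was called with the replicate number as a block (-1.05, adjusted p = 7.5e-05). Rora and Hif1a, a nuclear receptor and the hypoxia factor, differed by 1.5 and 1.91 against 1.56 and 1.99 in WT. Both were lower in deficient than in WT cultures of either subset by similar amounts, Rora by -1.49 in TH17 and -1.42 in Treg, and Hif1a by -1.60 and -1.52, so their lineage difference remained within 0.08 of WT (interaction -0.06 for Rora, SE 0.39, and -0.08 for Hif1a, SE 0.29). Stat3 and Irf4, which act in many T cells, differed by 0.44 and 0.41 (adjusted p = 0.0162 and 0.00915), below the 2-fold threshold. Nfkbiz and Runx1 did not pass the test.

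**Figure D3:**
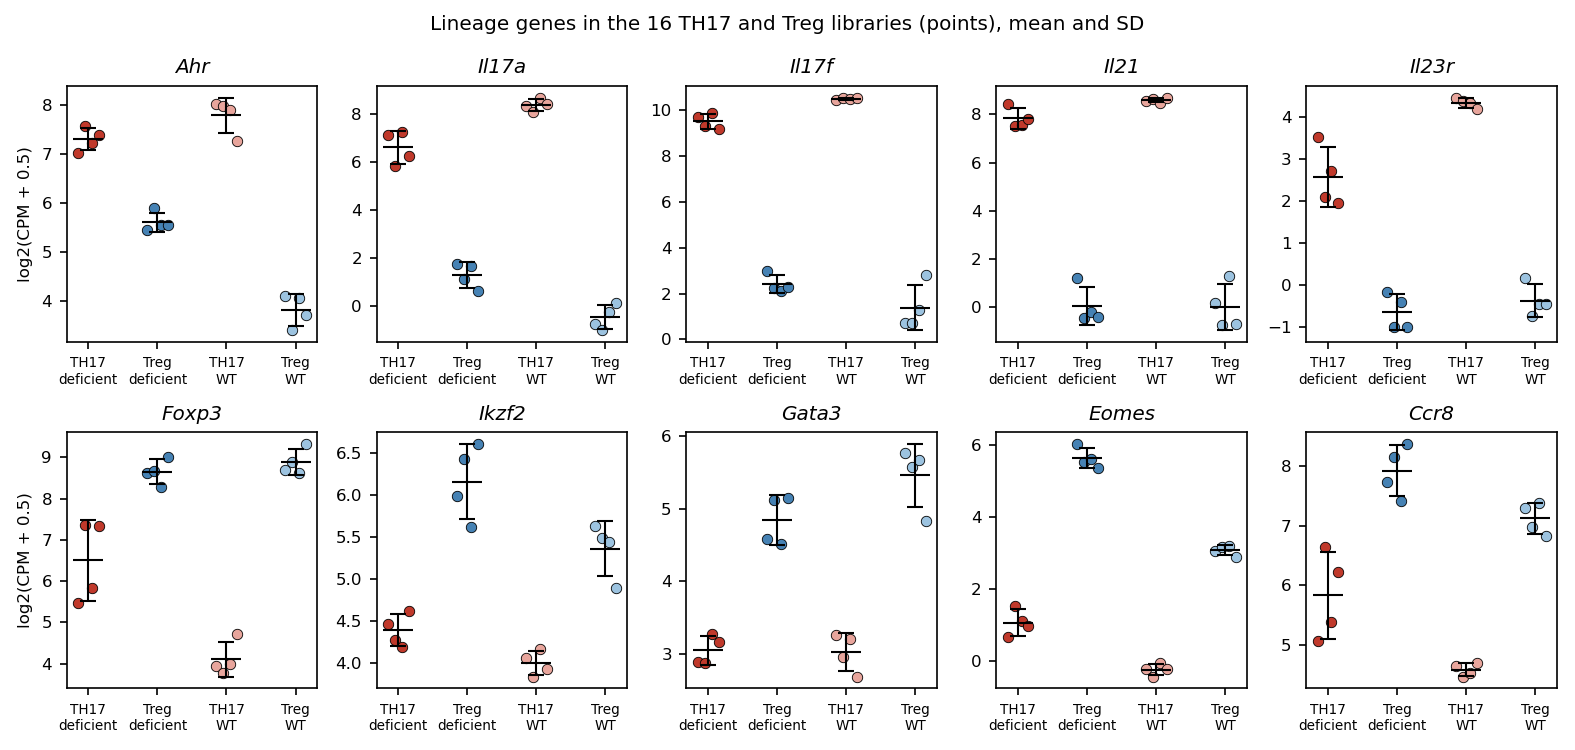
Log2(CPM + 0.5) of 10 lineage genes in the 16 TH17 and Treg libraries, with points for libraries and bars for mean and SD. Deficient TH17 and Treg libraries did not overlap for any of the 10 genes, and for Foxp3 and Il17a the gap between them was narrower than between WT libraries.

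Of 9 TH17 receptors and surface proteins tested, 6 were higher in deficient TH17 cultures (background 4.05%) and none in Treg (4.83%), the same count as in WT. The medians of 2.97 and 2.94 were both those of Tmem176a. Fitted log2 fold changes of Il1r1, Il17re and Ltb4r1 were smaller in deficient than in WT subsets. For Il23r, with very few reads in Treg libraries, they cannot be ranked (interaction -0.86, SE 1.09, adjusted p = 0.679, edgeR quasi-likelihood test). Il23r, the receptor for the cytokine that stabilizes TH17 cells, was read at 11, 3.81, 6.16 and 3.38 CPM in deficient TH17 libraries and at no more than 3 counts in any deficient Treg library, at least 15.4-fold higher. It was nevertheless lower in deficient than in WT TH17 libraries (17.8 to 21.7 CPM) by -1.71 (SE 0.32, adjusted p = 0.000116, edgeR quasi-likelihood test). Il1r1, the receptor for IL-1, differed by 4.59 (SE 0.42) against 6.00 in WT, and Il17re, the receptor for IL-17C, by 4.51 (SE 0.50) against 5.73, with interactions of -1.41 and -1.22 that did not pass. With the replicate number as a block the Il1r1 interaction was called (-1.40, adjusted p = 0.0431). Tmem176a and Tmem176b, a pair of related membrane proteins, differed by 2.97 and 2.75 against 2.94 and 2.81. Tmem176a was read at 34.1 to 63.7 CPM in deficient TH17 and 5.18 to 8.41 CPM in deficient Treg libraries, beside 34.7 to 43.8 and 2.21 to 7.83 CPM in WT. Ltb4r1, the leukotriene B4 receptor, differed by 3.59 against 6.25, and its interaction of -2.66 (adjusted p = 0.0212) was lost when any replicate number was left out of all 4 groups (adjusted p = 0.0575 to 0.14). It was also lost without deficient Treg replicate 1 or 3 or WT Treg replicate 2 (-2.40, -2.41 and -2.35, adjusted p = 0.0548, 0.0573 and 0.0577). Ccr6, the receptor for CCL20, did not separate the subsets (21.6 ± 6.4 CPM in TH17 and 36.8 ± 21.4 CPM in Treg, adjusted p = 0.185). Il6st, the shared signalling chain of the IL-6 receptor, differed by 0.70 in deficient and -0.57 in WT subsets, with an interaction of 1.27 (adjusted p = 0.00329).

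On the Treg side, FOXP3 separated the deficient subsets much less than the WT subsets. Foxp3 (chrX:7573644-7595245) was read at 395, 407, 312 and 517 CPM in deficient Treg and at 44.1, 165, 56.7 and 160 CPM in deficient TH17 libraries. They did not overlap, and replicates 2 and 4 of TH17, those with the least Il17a, were the highest. WT TH17 libraries held 14.8, 13.1, 15.4 and 25.9 CPM, below every deficient TH17 library, and WT Treg libraries 478 ± 112 CPM (n = 4). TH17 against Treg gave -1.93 (SE 0.30, adjusted p = 2.17e-05, edgeR quasi-likelihood test) in deficient and -4.79 in WT subsets, and the interaction was 2.85 (SE 0.43, adjusted p = 7.88e-05). Deficient TH17 exceeded WT TH17 libraries by 2.62 (SE 0.32, adjusted p = 1.31e-06), and deficient against WT Treg gave -0.23 (SE 0.29, adjusted p = 0.499). In Dohh-deficient subsets the log2 fold change of Foxp3 was -3.38 (adjusted p = 0.000356), in a table fitted apart.

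Of 8 Treg transcription factors, 3 were higher in deficient Treg (Foxp3, Ikzf2 and Ikzf4, against a background of 4.83%), the 3 that were also higher in WT Treg cultures, and 1, Satb1, was higher in deficient TH17. Ikzf2, the gene of Helios, was read at 62.9, 85.2, 48.8 and 96.7 CPM in Treg and 17.8 to 24.1 CPM in TH17 libraries, a log2 fold change of -1.83 (SE 0.19, adjusted p = 2.6e-08, edgeR quasi-likelihood test) against -1.41 in WT. Ikzf4, the gene of Eos, differed by -1.02 (SE 0.17), just past the threshold. With the replicate number as a block it was -0.99, and without any 1 of TH17 replicates 1 and 3 or Treg replicates 2 and 4 it was -0.95 to -0.88, in each case under 2-fold with an adjusted p of at most 0.000535. Satb1, a chromatin organizer, stood at 968, 496, 579 and 577 CPM in TH17 and 73.7, 66.5, 53.5 and 62.7 CPM in Treg libraries, a log2 fold change of 3.35 (SE 0.21) against 4.19. Id3, an inhibitor of E proteins, had a called interaction of -1.93 (adjusted p = 2.6e-06). It was read at 9.86 to 16.5 CPM in TH17 and 17.6 to 23.3 CPM in Treg deficient libraries, whereas WT TH17 libraries (18.1 ± 1.0 CPM) were higher than WT Treg libraries (7.40 ± 0.21 CPM). Bach2, Foxo1 and Prdm1 did not pass both thresholds.

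Among 15 Treg receptors and surface proteins, 6 were higher in deficient Treg (background 4.83%), against 4 in WT. They were Tnfrsf9, Nrp1, Gpr83, Izumo1r, Lrrc32 and Tigit. Lrrc32, the gene of GARP that holds latent TGF-beta on Treg cells, was read at 90.5, 136, 63.6 and 135 CPM in Treg and 30.2, 45.1, 19.8 and 54.0 CPM in TH17 libraries, without overlap. It differed by -1.5 (SE 0.39, adjusted p = 0.00536, edgeR quasi-likelihood test) in deficient and -0.30 in WT subsets, but the interaction of -1.20 (SE 0.53) did not pass (adjusted p = 0.156). With the replicate number as a block it was called (-1.21, adjusted p = 3.86e-05), as was that of Nrp1 (1.14, adjusted p = 6.28e-05). Tigit, an inhibitory receptor, differed by -1.59 against -0.80, with an interaction of -0.78 (adjusted p = 0.215). Izumo1r, the folate receptor FR4, differed by -1.34 against -1.64. Calls were less stable for Nrp1 (-1.22), Gpr83 (-1.11) and Tnfrsf9 (-1.12). Nrp1 was lost without TH17 replicate 3 or Treg replicate 4, Gpr83 without TH17 replicate 3 or Treg replicate 1, and Tnfrsf9 without TH17 replicate 2 or 4 or Treg replicate 1, at -1.06 and -1.08, -0.90 and -0.92, and -0.96, -0.98 and -0.81 in that order.

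Some surface genes usually counted with Treg cells were higher in TH17 or did not separate the deficient subsets. Icos and Ctla4, a costimulator and its inhibitory relative, were higher in TH17 by 1.03 (SE 0.25) and 1.19 (SE 0.38), and both calls were lost without TH17 replicate 1, at 0.78 for Icos and 0.83 for Ctla4, and without Treg replicate 2, at 0.88 for Icos and 1.05 for Ctla4. Treg replicates 3 and 4 had the same effect, with 0.92 and 0.96 for Icos and 1.13 and 1.10 for Ctla4. Il2ra, the IL-2 receptor alpha chain, stood at 2144 to 3035 CPM in TH17 and 1585 to 2842 CPM in Treg libraries, and the groups overlapped. Itgae, the CD103 integrin, had the only interaction of the list called without the block, -1.47 (SE 0.37, adjusted p = 0.00927, edgeR quasi-likelihood test). Deficient Treg libraries held 91.3, 199, 107 and 181 CPM and deficient TH17 libraries 41.7, 87.2, 81.0 and 88.0 CPM of Itgae, both above every WT library (at most 25.6 CPM). The lineage difference itself was -0.96 (adjusted p = 0.00559), under 2-fold.

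Of 8 secreted mediators of Treg cells, 2 were higher in deficient TH17 (background 4.05%) and 1 in deficient Treg (4.83%). Il10, an inhibitory cytokine that TH17 cells can also make, was higher in deficient TH17 (178, 305, 278 and 239 CPM) than in deficient Treg libraries (71.3, 26.8, 57.6 and 23.2 CPM), and the groups did not overlap. The difference was 2.48 (SE 0.28, adjusted p = 1.76e-07, edgeR quasi-likelihood test) against 4.24 in WT, where the levels were 41.6 ± 4.3 CPM in TH17 and 2.22 ± 1.27 CPM in Treg. The interaction of -1.76 (adjusted p = 0.012) was lost with the replicate number as a block (-1.69, adjusted p = 0.143) and without replicate 1 of all 4 groups (-1.28, adjusted p = 0.135). Penk, a precursor of enkephalins expressed by Treg cells, was the only member higher in deficient Treg, by -1.92 (SE 0.43) against -3.62. Fgl2, a secreted immunosuppressive protein, was below 2-fold in deficient subsets (-0.90), was higher in TH17 in WT (1.15), and had a called interaction of -2.05 (adjusted p = 0.00151). Gzmb, granzyme B, stood at 1783 ± 364 CPM in TH17 and 2508 ± 1136 CPM in Treg deficient libraries and did not separate them (adjusted p = 0.42), while both were above WT libraries, by 3.46 in TH17 and 4.76 in Treg. Areg was called higher in TH17 (1.29), at levels of 2.83 and 1.14 CPM, and lost the call without any 1 of 5 libraries, TH17 replicates 2, 3 and 4 and Treg replicates 1 and 4 (1.10 to 1.31, adjusted p = 0.0515 to 0.0982).

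A few genes of the cytokine pathways that set up the subsets were called, beside a background of 8.89% of all genes tested. Of 10 genes of the IL-6 and STAT3 response, 4 were higher in deficient TH17 and none in Treg (6 and none in WT). Batf and Hif1a, among these 4, were already counted with the TH17 transcription factors, so the counts are not separate. Socs3, the feedback inhibitor of this pathway, was read at 192, 286, 253 and 273 CPM in TH17 and 103, 54.8, 65.5 and 54.7 CPM in Treg libraries, beside WT means of 252 ± 35.8 and 79.3 ± 24.2 CPM. The difference was 1.85 (SE 0.26, adjusted p = 4.31e-06, edgeR quasi-likelihood test) against 1.67. Bcl3, a nuclear IκB protein, differed by 1.18 (SE 0.12) against 1.09. Of 10 genes of TGF-beta signalling, Smad3, which carries the signal, was higher in deficient TH17 by 1.82 (SE 0.18) against 2.07, and Tgfbr1, the type I receptor, was higher in deficient Treg by -1.37 (SE 0.24) against -1.61. Of 9 genes of the IL-2 and STAT5 response only Il2 passed, at 3.83 to 7.10 CPM in TH17 and 0.518 to 0.964 CPM in Treg libraries (3.01, SE 0.64). The counts of the TGF-beta list (2 of 10) and of the IL-2 list (1 of 9) were not distinguished from the background. None of these genes had a called interaction.

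Eomes, Tbx21 and Gata3, regulators of other T cell programs, were higher in deficient Treg cultures. Eomes, a T-box factor of cytotoxic cells, was read at 64.2, 45.7, 48.0 and 40.7 CPM in Treg and 1.06, 2.37, 1.66 and 1.43 CPM in TH17 libraries, a log2 fold change of -4.91 (SE 0.38, adjusted p = 2.04e-10, edgeR quasi-likelihood test) against -4.45 in WT. Its level in deficient Treg was above the WT Treg mean of 7.93 ± 0.78 CPM by 2.64 (adjusted p = 8.81e-08). Tbx21, the gene of the TH1 regulator T-bet, stood at 42.9 to 55.0 CPM in Treg and 9.70 to 24.5 CPM in TH17 libraries (-1.57, SE 0.33). Of 13 genes of the TH1 program, Eomes, Tbx21, Il18r1, Fasl and Nkg7 were higher in Treg (background 4.83%) and Hlx in TH17 (4.05%), and 5 were higher in Treg in WT too (6.8%). The Nkg7 call (-1.11) was lost without TH17 replicate 1 or 4, at -0.94 and -0.99. Ifng, the TH1 cytokine, did not separate the deficient subsets (179 ± 72.9 CPM in TH17 and 162 ± 36.3 CPM in Treg), and both exceeded WT libraries (3.96 and 3.63 on the log2 scale).

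Of 6 markers of CD8 T cells and natural killer cells, Cd8a, Klrb1c and Ncr1 were higher in deficient Treg cultures as well (background 4.83%), whereas the receptor genes Klrd1 and Klra7 gave 0.29 and -0.08 and did not pass. Cd8a was read at 169, 153, 204 and 132 CPM in deficient Treg and 25.4 to 43.6 CPM in deficient TH17 libraries (-2.22, SE 0.51, adjusted p = 0.00212, edgeR quasi-likelihood test), whereas Cd8b1, the partner chain, did not pass (-0.14). Klrb1c was read at 8.48 ± 2.21 CPM in Treg and 0.568 ± 0.276 CPM in TH17, and Ncr1 at 3.86 ± 1.70 CPM and 0.313 ± 0.248 CPM. The summed list of 6 genes ran from 251 to 383 CPM in deficient Treg and from 179 to 250 CPM in deficient TH17 libraries. The B cell genes that were higher in Treg cultures included Cd79a and Ms4a1, and the B cell sum was highest, 171 CPM, in Treg replicate 1. Without that library Cd79a was no longer called (-1.62, adjusted p = 0.0535). CD4+ T cells were purified by negative selection before culture, a step meant to remove other cell types. The part of such cells, those of the gamma-delta list included, in the TH1 genes or in the TH17 cytokines and receptors was not tested.

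Gata3, the TH2 regulator, was higher in Treg cultures, at 23.5, 34.2, 22.3 and 35.1 CPM against 6.91, 6.84, 9.15 and 8.46 CPM in TH17 libraries. It differed by -1.88 (SE 0.22, adjusted p = 2.04e-07, edgeR quasi-likelihood test) against -2.53 in WT, and the interaction of 0.65 did not pass (adjusted p = 0.177). Ccr8, a chemokine receptor of TH2 and tissue Treg cells, stood at 212, 284, 170 and 329 CPM in Treg and 33.2, 99.4, 41.3 and 73.9 CPM in TH17 libraries, a difference of -2.0 (SE 0.24) against -2.58. Il24, an IL-10 family cytokine, was the TH2 list member higher in TH17 (1.44). Il4, Il5, Il13, Ccr4 and Il1rl1 did not pass the test in deficient subsets.

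Of 17 homing receptors tested, 8 had a called interaction (background 4.78%). Of the 17, 6 were higher in deficient TH17 (among them Ccr3, Cxcr4, Cxcr6 and Gpr15), against a background of 4.05%. In deficient Treg 2 were higher (Ccr8 and Itga4), a count not distinguished from the background of 4.83%. Ccr2, the receptor for CCL2, separated the WT but not the deficient subsets. It stood at 30.3, 16, 27.0 and 21.1 CPM in TH17 and 18.1, 13.6, 23.4 and 10.8 CPM in Treg libraries, which overlapped, with an interaction of -3.32 (adjusted p = 1.49e-05, edgeR quasi-likelihood test). Gpr15 and Cxcr6, receptors for homing to colon and tissue, differed by 2.08 and 1.18 against 3.73 and 2.90, and their interactions were -1.65 and -1.73 (adjusted p = 0.000493 and 0.003). For both genes the change lay mainly in higher levels in deficient than in WT Treg libraries, by 1.89 for Gpr15 and 2.78 for Cxcr6.

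Itga4, the integrin chain of VLA-4, was higher in Treg libraries by -1.53 in deficient and -3.17 in WT subsets (interaction 1.64, adjusted p = 0.00819, edgeR quasi-likelihood test), and deficient Treg libraries (17.7 to 34.0 CPM) lay under the WT Treg mean of 93.8 ± 40.4 CPM. That interaction was not called without replicate 3 of all 4 groups (1.39, adjusted p = 0.0754). Ccr3 was at no more than 3 counts in deficient Treg libraries and at least 7.45-fold higher in TH17. Ccr4, Ccr7, Cxcr5, S1pr1 and Itgb7 did not pass the test.

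**Figure D4:**
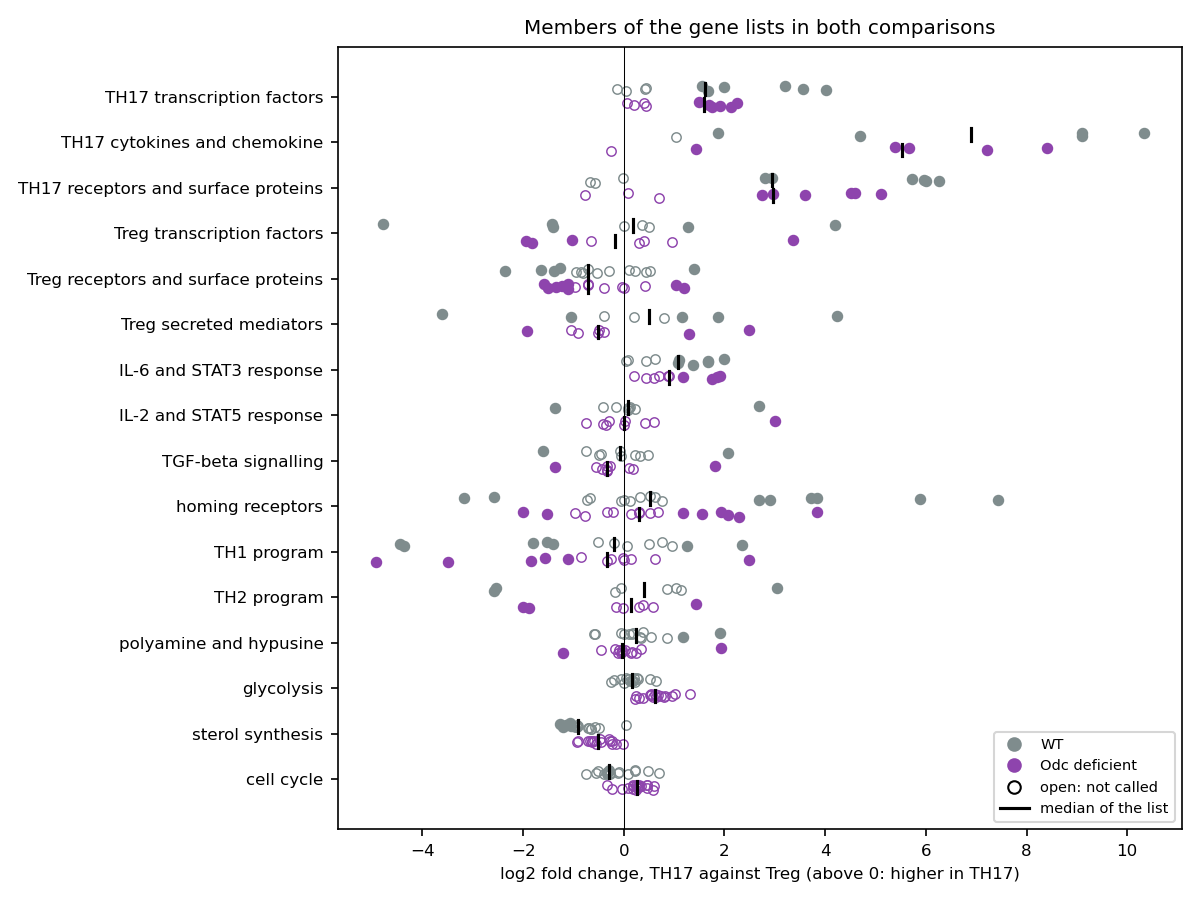
Log2 fold change of TH17 against Treg for every tested member of 16 gene lists, WT in grey and deficient in purple, with filled points for called genes, open points for the others and a black line at the list median. Of the TH17 lists, 5 of 6 cytokine and 6 of 9 receptor genes were called to the right in deficient subsets, no glycolysis, sterol synthesis or cell cycle gene was called in them, and genes near 0 counts are drawn at their fitted value.

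No gene of glycolysis, sterol synthesis or the cell cycle was called between deficient subsets by edgeR. With 8.89% of all genes called, few calls would fall in lists of this size, and the counts of 0 were not distinguished from that background. At an unadjusted p below 0.05 (edgeR) there were 12 of 17 glycolysis, 12 of 16 sterol synthesis and 8 of 20 cell cycle genes. The share of all genes at that unadjusted p was not counted. It is not the 8.89%, since 2918 of 13839 genes passed an adjusted p below 0.05 without a fold threshold. These counts are therefore no result about the lists. DESeq2 called 1 glycolysis gene, Slc16a3, and none of the other lists. Slc2a3, a glucose transporter, and Slc16a3, a lactate exporter, exceeded 2-fold without passing the test (1.32 and 1.02, adjusted p = 0.257 and 0.0602, edgeR quasi-likelihood test). None of 17 glycolysis genes was called in deficient or WT subsets, although the median log2 fold change was 0.611 in deficient and 0.161 in WT. Pkm, pyruvate kinase, stood at 4856, 2551, 3458 and 3270 CPM in TH17 and 2731, 1029, 2191 and 1369 CPM in Treg libraries (0.95, adjusted p = 0.000764, edgeR quasi-likelihood test). With the replicate number as a block Pkm was called at 1.01, and Slc16a3 at 1.18. Of 16 sterol synthesis genes none was called in deficient and 5 in WT subsets (background 14%), all 5 higher in Treg, with medians of -0.521 and -0.917. Hmgcs1, the synthase at the start of the pathway, differed by -0.92 (SE 0.12, adjusted p = 2.06e-06) in deficient and by -1.27 in WT subsets, and its interaction was 0.36 (SE 0.17). None of 20 cell cycle genes was called in either comparison, with medians of 0.255 in deficient and -0.291 in WT. Ccnb2, cyclin B2, had the only called interaction of the list (1.05), and lost it without Treg replicate 2 of either genotype (0.99 in both runs).

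Within the polyamine and hypusine pathway, 2 of 14 genes separated the deficient subsets, a count not distinguished from the background of 8.89%. Smox, which oxidizes spermine to spermidine, was read at 217, 45.8, 89.2 and 66.9 CPM in TH17 and 34.5, 23.1, 29.2 and 23.3 CPM in Treg libraries. The groups did not overlap, and TH17 replicate 1 was by far the highest. Smox differed by 1.93 (SE 0.42, adjusted p = 0.00119, edgeR quasi-likelihood test) against 1.92 in WT, and it was lower in deficient than in WT libraries by -2.35 in TH17 and -2.36 in Treg. Azin2, an inhibitor of antizyme, was higher in deficient Treg (6.51 to 8.60 CPM) than in deficient TH17 libraries (2.26 to 4.34 CPM), by -1.21 (SE 0.24). Its WT difference was 0.11 and its interaction -1.32 (adjusted p = 0.0111), lost without replicate 1 of all 4 groups (-1.13, adjusted p = 0.107). Srm, spermidine synthase, stood at 171 and 184 CPM and did not separate the deficient subsets (adjusted p = 0.903). Eif5a and Dohh gave 0.02 and -0.17.

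The genes with the largest differences beyond the lists were picked among protein-coding genes called in the deficient comparison, with at least 10 CPM on average in the higher group and no overlap between the subsets. On the TH17 side, the 12 genes included Il21, Il17f, Il17a, Il22 and Il1r1 of the lists. Serpinb5, a serpin, was at 0 in all deficient and WT Treg libraries and at 11.2, 10.1, 9.32 and 19.5 CPM in deficient TH17, at least 31.6-fold higher. Enpp2, which encodes autotaxin, differed by 4.88 (SE 0.66), at 51.7, 14.9, 17.8 and 18.5 CPM in TH17 libraries. Lbp, the lipopolysaccharide-binding protein, was read at 50.2, 197, 76.5 and 159 CPM in TH17 and 1.45 to 6.12 CPM in Treg libraries (4.86, SE 0.40, adjusted p = 1.06e-09, edgeR quasi-likelihood test). Tox2 and Lgr4, a nuclear factor of follicular helper cells and an R-spondin receptor, differed by 4.45 and 4.40. TH17 replicate 1 was the highest for Serpinf1, a secreted serpin, at 45.9 CPM against 3.68 to 11 CPM in the other TH17 libraries. Serpinf1 (4.84) lost its call without replicate 1 of all 4 groups (4.15, adjusted p = 0.0636).

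On the Treg side the 12 genes included Eomes. Pla2g4f, a cytosolic phospholipase, was the most even, with 90.2, 122, 81.7 and 107 CPM in Treg and 1.5 to 2.13 CPM in TH17 libraries, a log2 fold change of -5.68 (SE 0.32, adjusted p = 2.79e-13, edgeR quasi-likelihood test) against -5.99 in WT. Nfatc4, a calcium-regulated factor, had the largest fitted log2 fold change of the 12, a size that rests on very few reads in TH17 libraries, at 10.8, 44.2, 26.9 and 31 CPM against 0 to 0.526 CPM (-6.78, SE 0.66). Ccl1, the ligand of CCR8, was read at 21.7, 79.9, 46.0 and 42.5 CPM in deficient Treg and 0.399 to 3.33 CPM in deficient TH17 libraries (-4.88, SE 0.65). WT Treg libraries held 0.691 to 4.89 CPM of Ccl1, under every deficient Treg library (log2 fold change 4.64 deficient against WT). Hrh3 and Pigr, a histamine receptor and the transporter of polymeric antibodies, were likewise higher than in WT Treg cultures, at 50.8 ± 33.1 and 28.9 ± 5.2 CPM in deficient Treg and 0.927 ± 0.280 and 3.06 ± 0.97 CPM in WT Treg libraries. Loxl4, a lysyl oxidase, differed by -5.20 in deficient and -3.45 in WT subsets. Dnah7a, Fbln2, Pyroxd2, Apba1 and Ak5 made up the rest, with log2 fold changes from -5.96 to -4.09. Reads of Dnah7a can be shared with its near copies. Of these 12 genes only Pyroxd2 had a called interaction (-2.20, adjusted p = 0.0217).

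The 10 largest called interactions in each direction were taken among protein-coding genes with at least 10 CPM on average in at least 1 of the 4 groups. Trat1, a T cell receptor adaptor, was read at 33.4 to 48.7 CPM in WT Treg libraries and at 2.11, 1.21, 0.906 and 2.35 CPM in deficient Treg libraries, within the range of the TH17 libraries of both genotypes. Its log2 fold change of -4.47 in WT was -0.32 in deficient subsets (interaction 4.14, SE 0.59, adjusted p = 3.73e-05, edgeR quasi-likelihood test). Muc13, a membrane mucin, converged from both sides, with 6.62 ± 4.60 CPM in TH17 and 6.47 ± 3.65 CPM in Treg deficient libraries against 1.61 ± 0.43 and 26.2 ± 1.9 CPM in WT. Rnf152, a ubiquitin ligase, gained a difference, 3.72 (SE 0.45) against -0.06 in WT, as deficient Treg libraries fell to 0.603 to 1.59 CPM from a WT mean of 13.2 ± 6.0 CPM. Scin, which severs actin filaments, rose from 0.922 ± 0.333 CPM in WT to 9.93 ± 5.20 CPM in deficient TH17 libraries (interaction 3.43). Prkar1b, Acvr1c and Hap1, at means of at most 3.81 CPM in both deficient subsets, had no lineage difference called there. Pld4 and Cdhr3 kept a called one, at -1.68 and -2.53.

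In the other direction, Slc4a4 and Abcb9 changed sides. Slc4a4, a bicarbonate transporter, was higher in WT TH17 (11.8 ± 1.6 CPM) than in WT Treg libraries (1.11 ± 0.20 CPM), and in deficient cultures it was read at 2.39, 6.31, 3.16 and 3.38 CPM in TH17 and 7.13, 12.3, 9.58 and 6.12 CPM in Treg libraries. The difference went from 3.40 to -1.20 (interaction -4.59, SE 0.39, adjusted p = 1.26e-08, edgeR quasi-likelihood test), although the highest TH17 and the lowest Treg library overlapped. Abcb9, a lysosomal peptide transporter, went from 2.45 to -1.36 without overlap (interaction -3.81, SE 0.36, adjusted p = 1.22e-07). Peg10, a retrotransposon-derived imprinted gene, fell in TH17 cultures, from 18.7 to 45.2 CPM in WT to 0.781 to 5.05 CPM in deficient libraries. Its interaction of -5.52 (adjusted p = 0.0097) was lost without deficient Treg replicate 2 (-4.81, adjusted p = 0.116). Klra5, a natural killer cell receptor, was read at 19.6, 22.9, 33.7 and 15.6 CPM in deficient Treg and 1.99 to 4.68 CPM in deficient TH17 libraries (-2.70), and at no more than 1.16 CPM in WT libraries. Cdh17, Gpnmb and Cxcr2 had no called difference in deficient subsets, and Pcdh7 and Atp6v0d2 had differences of 1.82 and 1.49. WT Treg libraries held no more than 3 counts of Peg10, Pcdh7, Cxcr2 and Klra5, so the sizes of these interactions depend on the model and bound nothing. Reads of Klra5 can be shared with other members of its gene family.

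A set of lineage genes chosen in other libraries summarized the comparison. Among WT cultures of the Dohh table, 982 genes were called between TH17 and Treg. Of these, 517 TH17 and 427 Treg genes were tested here, so that no library of the Odc table chose them. They were chosen for a difference between WT subsets, which favours the WT comparison and leaves out genes that differ only between deficient subsets. A smaller deficient than WT difference is therefore in part built into the choice. The median log2 fold change of the TH17 set was 1.87 in WT and 1.18 in deficient subsets, and that of the Treg set -2.09 and -1.25. Of the TH17 set, 386 genes (74.7%) were called in the same direction in WT and 242 (46.8%) in deficient subsets, with 10 in the opposite direction. Of the Treg set, 364 (85.2%) and 237 (55.5%) were, with 5 in the opposite direction. Of all genes tested, 7.23% in WT and 4.05% in deficient subsets were called higher in TH17, and 6.8% and 4.83% higher in Treg. The interaction was called towards a smaller difference at 119 TH17 and 102 Treg genes, and towards a larger one at 5 of each. Over all genes tested it was called at 4.78%, with 1.97% moved towards TH17 and 2.81% towards Treg.

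Each library was scored as the mean log2 CPM of the TH17 set less that of the Treg set. Deficient TH17 libraries scored 1.57, 0.704, 1.04 and 0.814, a mean of 1.03 ± 0.39 (SD, n = 4), below all WT TH17 libraries (1.93 to 2.63, mean 2.44 ± 0.34). Deficient Treg libraries scored -1.45 ± 0.20 and WT Treg libraries -1.72 ± 0.29, and these groups overlapped. The distance between the subsets was 2.48 in deficient and 4.16 in WT cultures, so that the deficient distance was 59.6% of the WT distance. In deficient cultures the subsets did not overlap, and deficient TH1 and TH2 libraries scored 0.770 ± 0.396 (n = 4) and 0.545 ± 0.246 (n = 3). WT TH1 and TH2 libraries scored 1.63 ± 0.13 and 1.52 ± 0.15 (n = 4 each), so that these subsets lay on the TH17 side of the score in both genotypes. No test was made on the score, and its genes were chosen for a WT difference, which favours the WT distance.

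**Figure D5:**
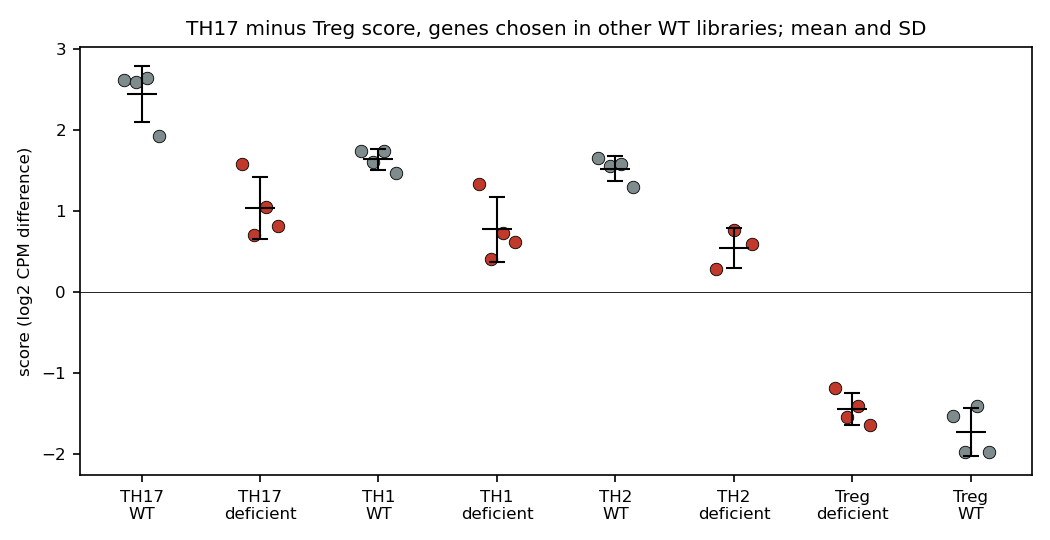
Score of each library of the Odc table, the mean log2 CPM of the TH17 set less that of the Treg set, with group mean and SD. Deficient TH17 libraries (0.704 to 1.57) lay below WT TH17 libraries (1.93 to 2.63) and far above deficient Treg libraries (-1.64 to -1.19).

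A first principal component over the 2000 most variable genes held 48.5% of the variance. On it WT TH17 libraries stood at -61.6 to -41.1, WT Treg libraries at -27.4 to -3.47 and deficient Treg libraries at 49.5 to 63.0. Deficient TH17 replicate 1 stood at -12.1, within the range of WT Treg libraries, and the others of its group at 20.5 to 29.4. A second component held 33.7% and set TH17 against Treg libraries. On the second component deficient Treg libraries stood at 1.22 to 11.7 and WT Treg libraries at 51.3 to 61.8, while deficient TH17 libraries stood at -44.2 to -34.1. Without deficient TH17 replicate 1 the deficient comparison called 1050 genes, 475 higher in TH17 and 575 higher in Treg.

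In Dohh-deficient subsets, which lack the enzyme at the end of the hypusine pathway and had 3 libraries per group, 584 of 13897 genes (4.2%) were called between TH17 and Treg cultures, and 358 without replicate 2 of the Dohh-deficient Treg group. The tables were fitted apart, so the values stand side by side and were not tested against each other. Of the TH17 cytokine list, Il17f alone was called in Dohh-deficient subsets (2.19), while Il17a gave 1.23 and Il21 1.51. Rora differed by 1.78, beside 1.5 in Odc-deficient subsets. Il10 was higher in Dohh-deficient Treg cultures (-2.33) and higher in Odc-deficient TH17 cultures (2.48). Il24 gave -4.71 in Dohh-deficient subsets and 1.44 in Odc-deficient subsets. Gzmb was higher in Dohh-deficient Treg cultures by -2.73. Of the TH17 receptors, Il23r, Il1r1, Il17re, Tmem176a and Tmem176b were called higher in TH17 in both kinds of deficient subsets. Ltb4r1 was called in Odc-deficient subsets and gave -0.18 in Dohh-deficient subsets, whereas Ccr6 was called in Dohh-deficient subsets (2.55) and gave -0.76 in Odc-deficient subsets.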

How the data were processed

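Poly(A) RNA of CD4+ T cell cultures was sequenced from a stranded library kit, and the authors deposited 1 table of raw counts per gene for the Odc and 1 for the Dohh experiment. The submitters' processing notes name STAR, featureCounts, DESeq2, deepTools and mm10, without roles. Count columns were matched to samples by name, and the 31 libraries of the Odc table were fitted together, with 1 TH2 sample not analysed here. Genes were kept by filterByExpr (13839), libraries were scaled by TMM, and contrasts were tested with the robust quasi-likelihood test of edgeR 4.0.16 in R 4.3.3 with Benjamini-Hochberg adjustment over all genes tested. A gene was called at an adjusted p below 0.05 and a fold change over 2, the interaction included. CPM are counts per TMM-scaled library, and log2 fold changes are TH17 minus Treg, so that negative values are higher in Treg. A group with at most 3 counts per library counted as at the floor, and a fold against it is given as a lower bound. Intervals and floors cover counting error only.

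All adjusted p-values come from these edgeR fits over all genes. Alternatives were RLE size factors, DESeq2 1.42.0, other filters and thresholds, fewer groups, a replicate block and leaving out libraries, and some of these were added after seeing the data. Same-numbered TH17 and Treg libraries deviated together from their group means (r = 0.285 to 0.501 in deficient and 0.348 to 0.576 in WT libraries, at most 0.219 between different numbers), and Xist and Ddx3y matched by number. The numbers therefore appear to pair the libraries. No source names the mice, so p-values measure the spread between these samples, which may be technical.

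The members and gene lists were chosen with earlier results of these data known. Named genes were the list members, the 12 largest differences in each direction among called protein-coding genes with at least 10 CPM and no overlap, and the 10 largest called interactions in each direction among protein-coding genes with at least 10 CPM on average in 1 or more of the 4 groups. Some of them are not reported here, although the counts include them. Gene positions came from GENCODE on GRCm38 and promoters from RefSeq on GRCm38.p6. On simulated data with 13261 genes, 23 of 50 genes changed 2-fold and all 50 changed 3-fold between deficient TH17 and Treg libraries were recovered, and 3 of 13061 unchanged genes were called.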

Additional observations from a re-analysis of the deposited data

Results flagged for a closer look

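In 8 of 179 groups of 4 libraries tested (4.47%), 1 library stood apart from the other 3, and chance alone gives about 1 in 20 groups. Among deficient Treg libraries, replicate 1 was low for Ccl20 (6.61 CPM against 15.2 to 15.9) and high for Il21 (1.85 CPM against 0.241 to 0.388), replicate 4 was low for Il22 (0.13 CPM against 0.361 to 0.396), and replicate 3 was high for the summed basophil and mast cell genes (181 CPM against 40.4 to 50.4). Among deficient TH17 libraries, replicate 1 was high for Cxcr4 (96.5 CPM against 67 to 71.3), and replicate 3 was high for Hlx (11.2 CPM against 6.18 to 6.78) and low for Izumo1r (75 CPM against 132 to 135). The lineage score of WT TH17 replicate 4 was 1.93 against 2.58 to 2.63.

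The difference between TH17 and Treg cultures itself differed between deficient and WT libraries at 43 of the genes named, by the edgeR interaction test. Of these, 39 are reported here. The interaction, the deficient minus the WT log2 fold change, was 2.85 for Foxp3, 4.14 for Trat1, 4.01 for Muc13, 3.78 for Rnf152, 3.77 for Pld4, 3.43 for Scin, 3.34 for Prkar1b, 3.28 for Acvr1c, 3.12 for Hap1 and 3.07 for Cdhr3. It was 1.64 for Itga4, 1.27 for Il6st and 1.05 for Ccnb2. Hbb-bt, a globin gene, gave 4.22 at a summed erythroid level of at most 3.07 CPM in any of these libraries, and lost its call in 10 of 26 alternative settings (3.62 to 4.03, adjusted p = 0.0504 to 0.0784, where leaving out 1 library ended it, edgeR quasi-likelihood test).

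Among TH17 genes, the interaction was -4.66 for Il17a, -2.66 for Ltb4r1 and -2.32 for Ahr. Among receptors for migration it was -3.32 for Ccr2, -1.73 for Cxcr6, -1.65 for Gpr15, -1.47 for Itgae and -1.09 for Cxcr3. Among secreted and regulatory genes it was -2.05 for Fgl2, -1.93 for Id3, -1.76 for Il10, -1.62 for Il24 and -1.32 for Azin2. The Il24 value lost its call in 21 of 29 alternative settings, with an adjusted p of 0.0513 to 0.142 where leaving out 1 library ended it (edgeR quasi-likelihood test). The remaining values were -5.52 for Peg10, -5.31 for Pcdh7, -4.83 for Cdh17, -4.69 for Atp6v0d2, -4.59 for Slc4a4, -4.43 for Cxcr2, -4.26 for Klra5, -4.21 for Gpnmb, -3.81 for Abcb9, -2.12 for Klrd1, -1.83 for Klra7 and -1.07 for Trdc. Cxcr3 and Klra7 lost their calls in 7 and 6 of 29 settings, Cxcr3 without deficient TH17 replicate 1 or 2 or WT Treg replicate 2 (-0.99, -0.98 and -0.97) and Klra7 without WT Treg replicate 2 (-1.64, adjusted p = 0.0503). Without replicate 2 of all 4 groups the calls of Cdhr3, Hap1 and Cxcr2 ended too (adjusted p = 0.0587, 0.0954 and 0.0781), as they did without replicate 1 for Hap1 and Cxcr2 (0.0677 and 0.108) and without replicate 3 for Cxcr2 (0.146). The Trdc value lost its call in 18 of 29 settings, with an adjusted p of 0.0576 to 0.126 where leaving out 1 library ended it (edgeR quasi-likelihood test).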

How the results depend on the processing

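Counts of called genes are given here for the deficient comparison, the WT comparison, the interaction and the genes called in both in the same direction, in that order. They were 604, 949, 416 and 419 with a mean count of at least 50, 440, 925, 93 and 296 with a test against the 2-fold threshold (glmTreat), and 2918, 4778, 1488 and 1737 without a fold threshold. At an adjusted p below 0.01 the interaction gave 368 and the Dohh-deficient comparison 257 calls. With the replicate number as a block the counts were 1294, 1880, 986 and 860, with 1130 of the deficient calls shared with the fit without the block. Among the selected genes the block changed the calls of Ikzf4, Pkm and Slc16a3 in the deficient comparison. It ended the interactions of Il10 and Il24 (-1.47, adjusted p = 0.25) and added 21, all but 3 of them below 0, among them Il17f, Il1r1, Maf, Lrrc32, Csf2, Cxcr4, Cd8a, Srm, Nrp1 and Penk. The distance between the subsets in the lineage score was 3.77 in deficient and 5.898 in WT libraries with 100 genes per direction and 2.81 and 4.62 with genes chosen at an adjusted p below 0.01, and 3.66 in WT with a prior count of 5.

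When single libraries or replicate numbers were left out, the deficient comparison gave 1002 to 1237, the WT comparison 1635 to 2116, the interaction 307 to 1001, the shared calls 655 to 783 and the Dohh-deficient comparison 358 to 845 calls. Odc1, deficient against WT, ranged from -0.46 to -0.32 in TH17 and from 0.15 to 0.31 in Treg cultures, and the score distance from 2.30 to 2.59 in deficient and from 4.08 to 4.33 in WT libraries. None of the 81 selected calls in the deficient comparison and none of the 43 interactions reversed its direction under any of these settings. Of the 81 calls 28 were lost under at least 1 of the settings, as were 23 of the 43 interactions. For selected genes that were not called, a change of direction was not checked. Genes with a mean count below 50 had no value under that filter. Of genes simulated with a 2-fold change 23 of 50 were called, and of those with a 3-fold change all 50, since a call needs an estimated change over 2-fold. The cause of these changes was not tested.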

Other observations

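Within the deficient TH17 group, replicates 2 and 4 held the most Foxp3 (165 and 160 CPM) and the least Il17a (56.4 and 75.5 CPM), while replicates 1 and 3 held 44.1 and 56.7 CPM of Foxp3 and 140 and 154 CPM of Il17a. Ccr8 followed Foxp3 in these libraries, at 99.4 and 73.9 CPM in replicates 2 and 4 and 33.2 and 41.3 CPM in replicates 1 and 3. In deficient Treg libraries the same numbers stood apart for Rora, at 36.4 and 32.7 CPM in replicates 2 and 4 and 15.9 and 13.7 CPM in replicates 1 and 3. The pattern was noticed in the data, and with 4 libraries a group no test was made.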
